A study of Macaca mulatta with 45 samples.

Results

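The question addressed here is whether subcutaneous fat changed differently over 24 months in rhesus monkeys that ate a high-fat, high-sucrose diet with resveratrol than in monkeys that ate the same diet without it. The quantity measured for each gene is a difference of changes: the change from baseline to 24 months on resveratrol minus the change on the diet alone. The arrays were chosen by their titles, as the subcutaneous arrays of these diets at both times, which gave 29 of the 45 arrays of the series. A first reading, called paired below, used the 18 arrays of the 9 animals that had a 24-month array, each set against the baseline array with the same animal code. A second, called all-baseline below, used all 29 arrays, so that the 9 later arrays were set against 20 baseline arrays.

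All animals were adult male rhesus monkeys (Macaca mulatta) aged 7 to 13 years. Baseline fat was taken from 10 animals later assigned to the high-fat, high-sucrose diet (HFS below) and 10 later assigned to HFS with resveratrol, while all of them ate a commercial chow. The diet drew 42% of its energy from fat and held about 27% sucrose by weight. A treat delivered resveratrol, 80 mg daily during year 1 and 480 mg daily after that, and HFS animals received a placebo treat. At 24 months there were 5 HFS arrays and 4 resveratrol arrays. Every animal changed from chow to the high-fat diet between its arrays, so the change on HFS holds diet, age and time together, and only the difference between the diets concerns resveratrol.

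Resveratrol is a plant polyphenol studied as a mimic of calorie restriction, and it has been linked to the deacetylase SIRT1, the kinase AMPK and the coactivator PGC-1alpha. Subcutaneous fat stores triglyceride in adipocytes and also holds progenitor cells, fibroblasts, vessels and macrophages within a collagen-rich matrix. Overfeeding is known to enlarge adipocytes, draw in macrophages and add matrix, and TGF-beta signalling through SMAD3 drives much of that matrix production. Fat sampled from an animal also carries a stress response of fast-acting genes, such as the phosphatase DUSP1 and the heat shock proteins, that depends on handling as well as on physiology.

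The bead arrays carry human probes, whose signal drops where the monkey sequence does not match, and levels are compared between arrays for a gene and never between genes. A probe was called detected when its deposited detection p was under 0.05. The subcutaneous arrays lie in 2 sets, A and B, told apart by the decimals of the deposited values. All 9 later arrays lie in set A. At baseline each diet had 3 arrays in set A and 7 in set B, so the sets were balanced between the diets in the all-baseline reading. Among the 9 paired animals, HFS animals 1 to 3 and resveratrol animals 1 to 3 had both arrays in set A, while HFS animals 4 and 5 and resveratrol animal 4 had a baseline array in set B. Of 15 adipocyte markers, 14 had a probe, and 8 of them, among which were PLIN1, CIDEA, LIPE and FABP4, were detected on all 29 arrays. The probe of the defining marker ADIPOQ was detected on none of them.

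The number of detected probes moved with the comparison. It changed by -1421, 412, 1, 610 and -315 probes in HFS animals 1 to 5, and by -462, 2632, 2072 and 3895 in resveratrol animals 1 to 4. In 3 of 4 resveratrol animals the gain was larger than in any HFS animal, and resveratrol animal 1 lay within the HFS range. The mean gain was larger on resveratrol by 2177 probes (two-sided exact permutation test over 126 splits, p = 0.0635, where 0.0159 is the smallest possible). Among the 6 animals with both arrays in set A the difference was 1750 probes (exact permutation p = 0.3, smallest possible 0.1). At 24 months 15712 to 16322 probes were detected on HFS and 17117 to 18673 on resveratrol.

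**Figure D1:**
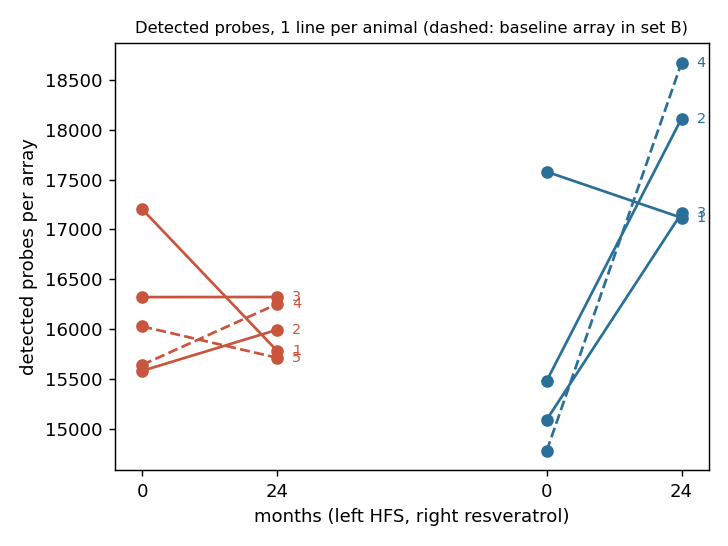
Detected probes per array (vertical axis) at baseline and 24 months in each of the 9 paired animals, HFS on the left and resveratrol on the right, numbered as in the text, with dashed lines for animals whose baseline array lay in set B. At 24 months the 4 resveratrol arrays, at 17117 to 18673, all lie above the 5 HFS arrays, at 15712 to 16322.

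In the paired reading no gene passed. Of 11528 genes tested with limma, 0 (0%) had an adjusted p under 0.05, and the smallest adjusted p was 0.237. At an unadjusted p under 0.05 there were 1055 genes (9.15%), of which 653 had a higher change on resveratrol and 402 a lower one. In 409 genes (3.55%) the changes of the 4 resveratrol animals did not overlap those of the 5 HFS animals. Of these, 242 genes (2.1%) lay above and 167 (1.45%) below. The median difference over all genes was 0.00 (log2, -0.0045 before rounding), the median size of a difference was 0.24, and the median standard error was 0.30, so that a typical difference lay within its error. The count of 0 became 3 without resveratrol animal 1, when PBDC1, CD55 and ZNF521 passed, and 42, all higher, with arrays scaled to a common median in place of quantile normalization.

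In the all-baseline reading 153 of 11325 genes (1.35%) passed, 136 higher (1.2%) and 17 lower (0.15%) on resveratrol. All 153 were also tested in the paired reading, which shares their later arrays, so its values are given beside them and not as support. For each of the 153 the gap between the diets was larger at 24 months than at baseline, as in 73% of all genes. Their median gap was 0.83 (log2) at 24 months and 0.05 at baseline, against 0.21 and 0.09 over all genes. The 153 were picked on the difference between these gaps in the same arrays. The gaps therefore describe the pick and do not support it. Median scaling raised the median difference of all genes to 0.61 and gave 1020 genes, 100% of them higher, against 88.9% of the 153.

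**Figure D2:**
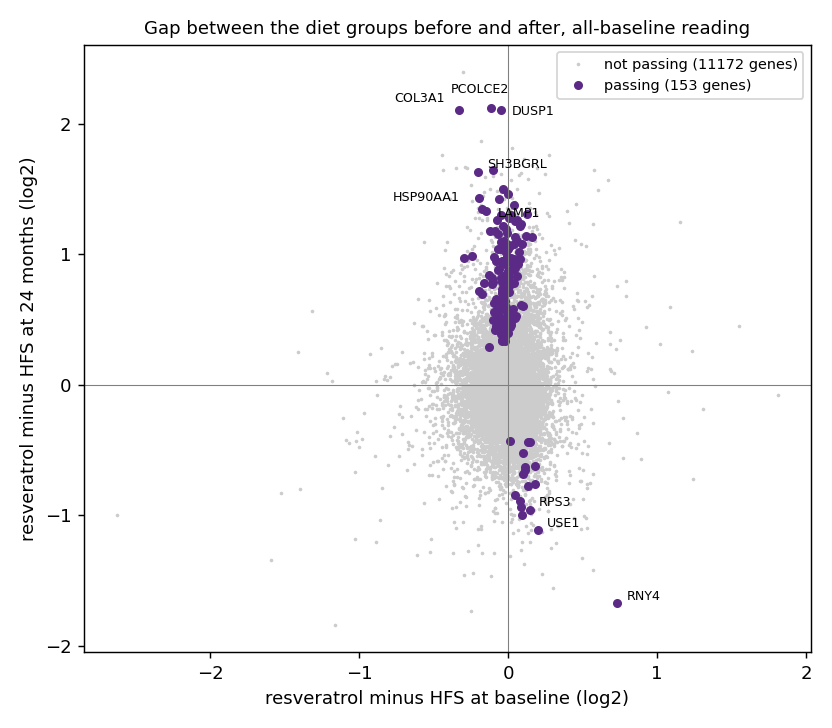
Gap between the diet groups, resveratrol minus HFS in log2 intensity, at baseline (horizontal axis) and at 24 months (vertical axis) for each gene of the all-baseline reading, with the 153 passing genes as large points. Passing genes lie near 0 at baseline, with a median size of 0.05, and away from 0 at 24 months, with a median size of 0.83. They were picked on the difference between these gaps.

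The count of 153 rested on few arrays. Without the 24-month array of resveratrol animal 4 it was 70, and without that of resveratrol animal 2 it was 82. It was 0 when only the arrays of set A were used (smallest adjusted p 0.0894). There 151 of the 153 genes kept their sign, but that fit shares all the later arrays, so the signs are no support. It was 8 with the number of detected probes as a covariate, and 448 with the array set as a covariate. Resveratrol animal 4 had the most positive change of the 4 resveratrol animals in 107 of the 136 higher genes and in 37.2% of all genes. With group means removed, the arrays of that animal correlated across genes at -0.0531, against 0.194 to 0.482 in the other animals. The median change over the 136 genes was 0.44, 0.72, 0.56 and 1.29 in resveratrol animals 1 to 4 and between -0.12 and 0.10 in the HFS animals. Of the 136 higher genes, 71 (52.2%) had a probe detected on none of the HFS arrays at 24 months, against 5.04% of all genes tested. In 43 of them (31.6%, against 1.16% of all genes tested) the probe was also detected on no baseline array of either diet. These 43 passed the detection filter only through the later resveratrol arrays, where they are high, so they had to differ, and their share of the 136 supports no direction. Of the genes named below, NOCT, LEPROTL1, CD55, PDIA4 and CLEC14A are such genes. SLC35B3, VDAC2, HDAC4, PBDC1 and EIF2AK3 also passed the filter only through the later resveratrol arrays. Their probes were detected on some arrays of the other groups, but in each of those groups on fewer than the filter asks. Their calls carry the same limit, and how many more of the 136 do was not counted. No lower gene had a probe detected only on the later resveratrol arrays. Of the 17 lower genes, 16 were detected on all 29 arrays. The part of the detected-probe difference in these calls was not tested beyond the covariate.

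DUSP1, the phosphatase that switches off MAP kinases, was among the 10 leading higher genes of the paired reading and among the 5 largest of the all-baseline reading. Its normalized log2 intensity at baseline was 5.12, 4.76, 5.13, 4.74 and 5.16 in HFS animals 1 to 5, and at 24 months 4.84, 5.35, 4.98, 4.96 and 4.69. In resveratrol animals 1 to 4 it was 4.69, 5.48, 4.63 and 4.90 at baseline and 6.45, 6.49, 6.96 and 8.39 at 24 months. The groups overlapped at baseline and did not overlap at 24 months, and resveratrol animal 4 was the highest. The probe was detected on 3 of 5 HFS arrays and 1 of 4 resveratrol arrays at baseline, and on 2 of 5 and 4 of 4 at 24 months, so the size of the difference rests largely on values below detection. The difference of changes was 2.16 ± 0.41 (log2, ± standard error, 9 animals, adjusted p = 0.237) in the paired reading and 2.16 ± 0.29 (29 arrays, adjusted p = 4.88e-05) in the all-baseline reading.

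LAMP1, a main glycoprotein of the lysosomal membrane, changed by a similar amount in all 4 resveratrol animals. Its log2 intensity moved from 7.95, 6.99, 7.01 and 7.57 at baseline to 9.61, 8.65, 8.60 and 9.31 at 24 months in resveratrol animals 1 to 4, a change of 1.59 to 1.74 in each. In HFS animals the change was -0.19, 0.73, -0.06, 0.35 and 0.36. No HFS animal reached the smallest change on resveratrol. The difference was 1.43 ± 0.27 in the paired reading (adjusted p = 0.237) and 1.46 ± 0.26 in the all-baseline reading (adjusted p = 0.00179), and it passed in the latter without any 1 of the later arrays.

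SMAD3, which carries the TGF-beta signal to the nucleus, changed by 1.17, 1.01, 0.63 and 1.15 in resveratrol animals 1 to 4 and by 0.01, 0.01, -0.31, -0.09 and 0.24 in HFS animals 1 to 5. The animals of the diets did not overlap. The difference was 1.02 ± 0.20 (paired) and 0.95 ± 0.16 (all-baseline, adjusted p = 0.000791). Its probe was detected on all 4 resveratrol arrays at 24 months and on 2 of the 5 HFS arrays.

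The other leading higher genes of the paired reading were, like DUSP1 and SMAD3, dim on HFS, apart from CLN8. SLC35B3, a Golgi transporter of the sulfate donor PAPS, changed by 0.83, 1.06, 0.64 and 1.47 on resveratrol and by -0.49 to 0.16 on HFS, and passed in the all-baseline reading at 1.09 ± 0.16 (adjusted p = 0.000132). VDAC2, a channel of the outer mitochondrial membrane, changed by 0.52, 1.01, 0.54 and 1.0 on resveratrol and by -0.49 to 0.09 on HFS, and passed at 1.03 ± 0.13 (adjusted p = 4.37e-05). LEPROTL1, an endosomal membrane protein, passed at 0.94 ± 0.12. HDAC4, a class II histone deacetylase, passed at 1.19 ± 0.16. NOCT, the rhythmically expressed enzyme nocturnin, passed at 0.65 ± 0.10, and PBDC1 at 1.52 ± 0.20. For these 6 genes the probe was detected on all 4 resveratrol arrays and on none of the 5 HFS arrays at 24 months. Their fitted differences therefore rest on values below detection. Set against the dimmest detected signal of each HFS array, the 24-month level on resveratrol was at least 2.11-fold that on HFS for PBDC1, 1.7-fold for HDAC4, 1.56-fold for SLC35B3, 1.47-fold for VDAC2, 1.36-fold for LEPROTL1 and 1.15-fold for NOCT. CLN8, which carries lysosomal enzymes out of the endoplasmic reticulum, differed by 1.56 ± 0.31 in the paired reading and by 1.10 ± 0.50 in the all-baseline reading, where it did not pass (adjusted p = 0.345). Its gap between the paired groups was -1.15 at baseline and 0.41 at 24 months.

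**Figure D3:**
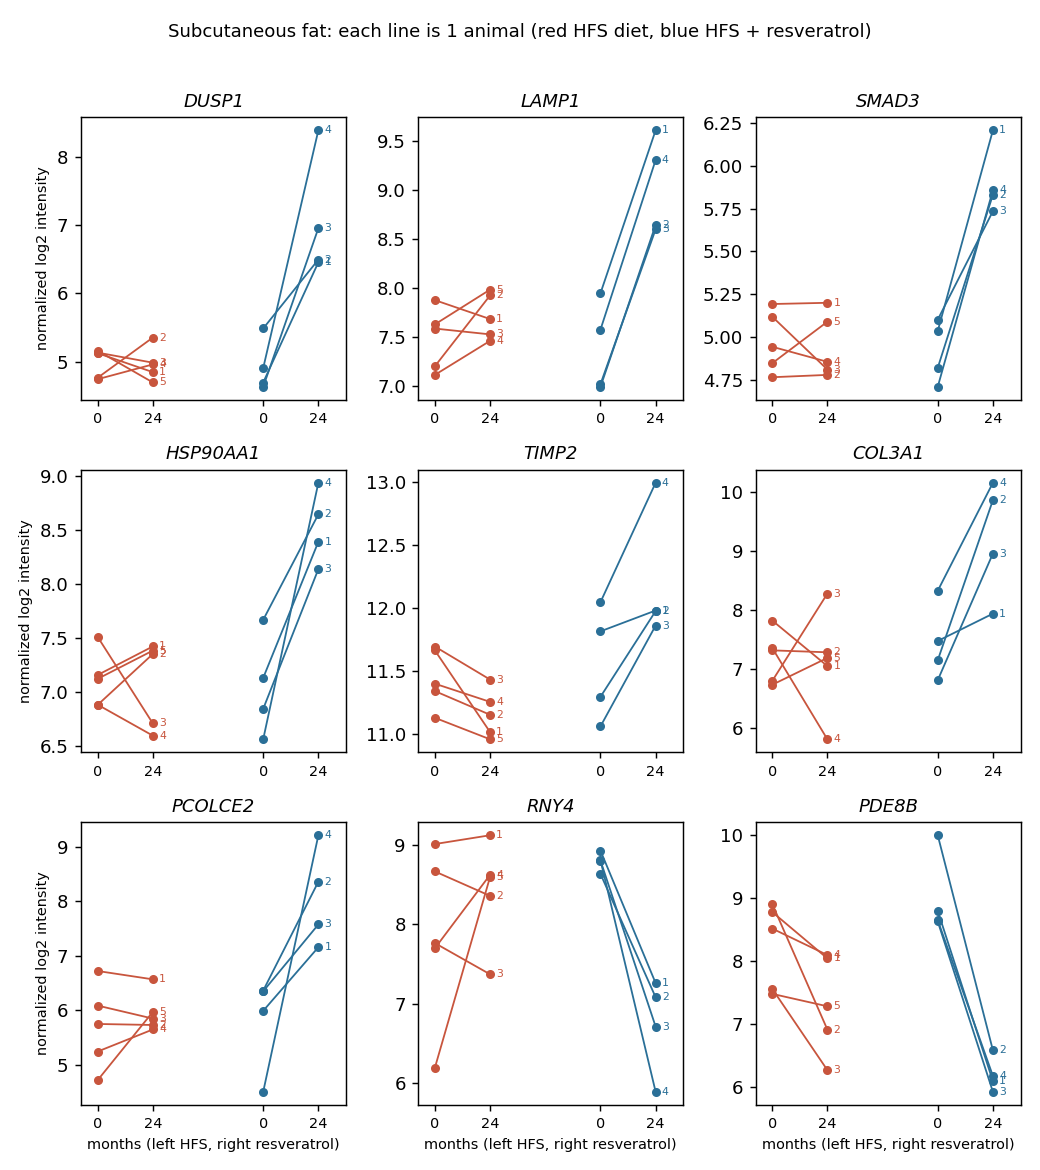
Normalized log2 intensity (vertical axes, a scale for each gene) at 0 and 24 months of 9 genes in the 9 paired animals, a line for each animal numbered as in the text, HFS in red on the left and resveratrol in blue on the right. In DUSP1, LAMP1, SMAD3, HSP90AA1 and TIMP2 every resveratrol animal moved up by more than any HFS animal; COL3A1 and PCOLCE2 overlap between diets, and RNY4 and PDE8B moved down further in every resveratrol animal.

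Among genes with a lower change on resveratrol, the largest difference was that of RNY4, a small Y RNA bound by the Ro60 protein. Its log2 intensity went from 8.93, 8.63, 8.80 and 8.81 to 7.26, 7.08, 6.71 and 5.89 in resveratrol animals 1 to 4. On HFS it went from 9.01, 8.66, 7.76, 7.70 and 6.20 to 9.12, 8.36, 7.37, 8.62 and 8.60. Every resveratrol animal moved down from its own baseline by more than any HFS animal, and HFS animal 5 moved up by 2.40. The difference was -2.60 ± 0.52 (paired, adjusted p = 0.237) and -2.45 ± 0.63 (all-baseline, adjusted p = 0.0436). RNY4 was no longer past the threshold in 7 of the 9 readings that left out a later array. RNY5, another Y RNA, differed by -1.76 ± 0.46 and the small nucleolar RNA SNORA12 by -1.79 ± 0.46 in the paired reading, and neither passed in either reading. Their gaps were larger at baseline, at 1.33 and 1.11, than at 24 months, at -0.43 and -0.68. Per the labels, the RNA was primed with oligo-dT, and these RNAs carry no poly(A) tail, so what their probes read was not tested.

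PDE8B, an enzyme that breaks down cyclic AMP, had lower levels at 24 months in all 9 animals. Its change was -2.71, -3.42, -2.71 and -2.48 on resveratrol and -0.74, -2.0, -1.29, -0.42 and -0.20 on HFS, with no overlap. The difference was -1.90 ± 0.38 in the paired reading and -1.48 ± 0.56 in the all-baseline reading, where it did not pass (adjusted p = 0.22). USF1, a transcription factor of lipid and glucose genes, differed by -1.38 ± 0.32 (paired) and lay just outside the threshold in the all-baseline reading (-1.22 ± 0.32, adjusted p = 0.0506). The splicing regulator TRA2A also lay just outside it (-1.20 ± 0.32, adjusted p = 0.0516). In the paired reading the sialyltransferase ST8SIA3 differed by -0.81 and the mitochondrial translation factor TSFM by -0.73. The leukotriene enzyme ALOX5 differed there by -0.71 and C3orf22 by -0.72, and none of these genes passed in either reading. The gap between the paired groups was larger at baseline than at 24 months for ST8SIA3 (0.46 and -0.36) and TSFM (0.50 and -0.22). For ALOX5 (0.26 and -0.45) and C3orf22 (0.32 and -0.39) it was larger at 24 months. TSFM was detected on 0 of 5 HFS and 4 of 4 resveratrol arrays at baseline, and on 2 of 5 and 1 of 4 at 24 months. ALOX5 was detected on all 5 HFS arrays and on none of the 4 resveratrol arrays at 24 months, where its level on HFS was at least 1.3-fold that on resveratrol.

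Beside RNY4, the largest passing differences of the all-baseline reading were those of COL3A1 and PCOLCE2, genes of collagen production. COL3A1, the chain of type III collagen, had baseline levels of 5.75 to 7.82 (median 6.76, 10 arrays) on HFS and 5.20 to 8.33 (median 6.15, 10 arrays) on resveratrol. At 24 months it stood at 7.05, 7.28, 8.28, 5.81 and 7.19 in HFS animals 1 to 5 and at 7.94, 9.86, 8.96 and 10.16 in resveratrol animals 1 to 4. Resveratrol animal 1 lay within the HFS range and the other 3 lay above it. The difference was 2.30 ± 0.60 (adjusted p = 0.0475) and, in the paired reading, 1.87 ± 0.58. It remained past the threshold in 2 of the 9 readings that left out a later array. PCOLCE2, which enhances the trimming of procollagens, differed by 2.19 ± 0.56 (adjusted p = 0.0436) and passed in 2 of those 9 readings. Its change was 1.17, 2.00, 1.23 and 4.71 in resveratrol animals 1 to 4 and -0.15, -0.02, -0.24, 0.41 and 1.25 in HFS animals 1 to 5, so that the highest HFS animal overlapped the lower resveratrol animals. Its probe was detected on 5 of 10 HFS and 7 of 10 resveratrol arrays at baseline. The changes of 4.71 and 1.25 started from 4.50 and 4.72, the lowest paired baseline level of each diet. The size of the difference therefore rests partly on values below detection.

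SH3BGRL, a small thioredoxin-fold protein, differed by 1.75 ± 0.36 (adjusted p = 0.00828). TUBA3E, an alpha tubulin, differed by 1.71 ± 0.38 (adjusted p = 0.0138), with changes of 1.33, 1.42, 1.68 and 2.97 on resveratrol and -0.45 to 1.05 on HFS. On the lower side, USE1, a SNARE protein of transport from Golgi to endoplasmic reticulum, differed by -1.29 ± 0.30 (adjusted p = 0.0229). RSPRY1 differed by -1.09 ± 0.23 (adjusted p = 0.00795). GSK3B, the kinase that restrains glycogen synthase and is inhibited by insulin signalling, differed by -1.03 ± 0.24 (adjusted p = 0.0244). Its log2 intensity at 24 months was 9.52, 9.08, 9.51, 9.28 and 9.42 on HFS and 8.62, 8.18, 8.94 and 7.94 on resveratrol, with no overlap, and resveratrol animal 4 was the lowest. GSK3B passed in 4 of the 9 readings that left out a later array. Without resveratrol animal 4 the adjusted p was 0.0544 for SH3BGRL, 0.0732 for TUBA3E, 0.0948 for USE1 and 0.139 for GSK3B, and RSPRY1 still passed.

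Gene lists were described by the number of members passing and by the median difference of the measured members. For comparison, 1.2% of all genes passed higher and 0.15% lower in the all-baseline reading, and the median of all genes was 0.00 in the paired reading. With median scaling the median of all genes moved to 0.72 in the paired reading, so list medians under that scaling are read relative to it.

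Matrix and TGF-beta genes had list medians above that of all genes. Of 42 measured extracellular matrix genes, 1 passed higher (COL3A1) and 0 lower, with a paired median of 0.21. With the deposited z scores that list lay at -0.095 relative to the median of all genes, and under the other scalings tried it lay above it. LUM, the proteoglycan lumican, changed by 1.23, 1.78, 1.92 and 1.76 on resveratrol and by -0.73, 1.12, -0.22, -0.61 and 0.65 on HFS. Those animals did not overlap, and the paired difference was 1.63 ± 0.39 (adjusted p = 0.324). NID2, a basement membrane protein, changed by -1.42 to -1.16 in the 5 HFS animals and by -0.87 to 0.12 on resveratrol, without overlap (difference 1.05 ± 0.27, adjusted p = 0.33). The microfibril protein MFAP4 differed by 1.29 ± 0.44 and overlapped between diets, HFS animal 2 having the largest change of all 9 animals.

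Of 21 matrix proteases, inhibitors and crosslinking enzymes, 2 passed higher, TIMP2 and PCOLCE2, with a paired median of 0.33. TIMP2, an inhibitor of matrix metalloproteinases, changed by -0.65, -0.19, -0.26, -0.14 and -0.17 in HFS animals 1 to 5 and by 0.68, 0.17, 0.80 and 0.95 in resveratrol animals 1 to 4. All HFS animals moved down and all resveratrol animals moved up. The difference was 0.93 ± 0.22 in the paired reading and 1.07 ± 0.26 in the all-baseline reading (adjusted p = 0.0317), where it passed in 4 of the 9 readings that left out a later array. P4HA1, a subunit of the enzyme that hydroxylates collagen prolines, differed by 0.96 ± 0.39 without passing. In TGF-beta signalling 1 of 21 passed, SMAD3, with a paired median of 0.13 that was 0.03 among the animals with both arrays in set A. The list lay at -0.0093 relative to the median of all genes with the deposited z scores. TGFBR3, the coreceptor betaglycan, differed by 1.32 ± 0.46 and LTBP2, a latent TGF-beta binding protein, by 1.69 ± 0.54, with overlap between diets in each.

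Some cell type markers also had list medians above that of all genes. Of 14 fibroblast and progenitor markers 1 passed higher, CD55, and the paired median was 0.43. CD55 met the detection filter only through the later resveratrol arrays, so that call supports no direction for the list. All 14 had a probe detected on at least 1 array, and their summed linear intensity was 42332 to 62068 on HFS and 46174 to 89028 on resveratrol at 24 months, against 33875 to 62659 and 38526 to 52641 at baseline. SCARA5, a ferritin receptor of fibroblasts, changed by 1.30, 1.38, 1.45 and 2.32 on resveratrol and by -1.30, 0.73, -0.67, 0.25 and -0.23 on HFS, without passing (adjusted p = 0.309). CD55, a complement regulator, differed by 1.14 ± 0.18 (all-baseline, adjusted p = 0.000406). Its probe was detected on 3 of the 4 later resveratrol arrays and on no array of the other 3 groups. Its mean 24-month level on resveratrol was 1.4-fold the dimmest detected signal of the HFS arrays. That mean takes the undetected resveratrol array at its read value, so the fold is not a lower bound.

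Smooth muscle and pericyte markers had a paired median of 0.50, and 0 of 15 passed. CNN1, a calponin of smooth muscle, differed by 1.31 ± 0.39 and MYH11, smooth muscle myosin, by 1.66 ± 0.63, each with its largest change in resveratrol animal 3. These differences lay mainly in the baseline arrays, where the gap between the paired groups was -1.07 for CNN1 and -1.74 for MYH11, against 0.24 and -0.08 at 24 months. With all baseline arrays they were 0.93 ± 0.58 (adjusted p = 0.528) and 1.0 ± 0.78 (adjusted p = 0.649). CNN1 stood at 4.33 to 4.42 on the paired resveratrol baseline arrays and at 4.35, 4.43, 4.74, 6.45 and 4.34 on the later HFS arrays. The dimmest detected signal of those HFS arrays averaged 4.97, so the size for CNN1 rests largely on values near or below detection. The summed intensity of the smooth muscle and pericyte markers was 20170 to 35146 on HFS and 18079 to 33840 on resveratrol at 24 months. Of 13 endothelial markers 1 passed, CLEC14A (fitted 0.62 ± 0.12, adjusted p = 0.00301), with a paired list median of 0.16 that was -0.20 among the animals with both arrays in set A. In the paired reading 7 of the 13 had a difference above 0, and the all-baseline median of the list was 0.03. CLEC14A was detected on 2 of the 4 later resveratrol arrays and on no other array. Its mean on those 4 arrays did not exceed the dimmest detected signal of the HFS arrays, so no fold is given and a higher level is not established. PLVAP, of the diaphragms of small vessels, differed by 1.32 ± 0.43 without passing, with gaps of -0.73 at baseline and 0.60 at 24 months. CLDN5, another of these markers, had a lower mean change on resveratrol, overlapped between diets and did not pass. Its log2 intensity went from 6.91, 7.05, 7.27, 8.16 and 7.32 to 6.86, 7.36, 8.40, 8.93 and 7.18 in HFS animals 1 to 5. In resveratrol animals 1 to 4 it went from 7.77, 6.05, 6.99 and 7.87 to 6.92, 7.04, 6.38 and 6.72. The summed intensity of the endothelial markers was 12650 to 22176 on HFS and 14672 to 15473 on resveratrol at 24 months, and ENG, ERG, FLT1, MMRN2 and ROBO4 were never detected. In bulk tissue, more cells of a type and more RNA per cell cannot be told apart, and the part of cell type shares in the matrix genes was not tested.

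**Figure D4:**
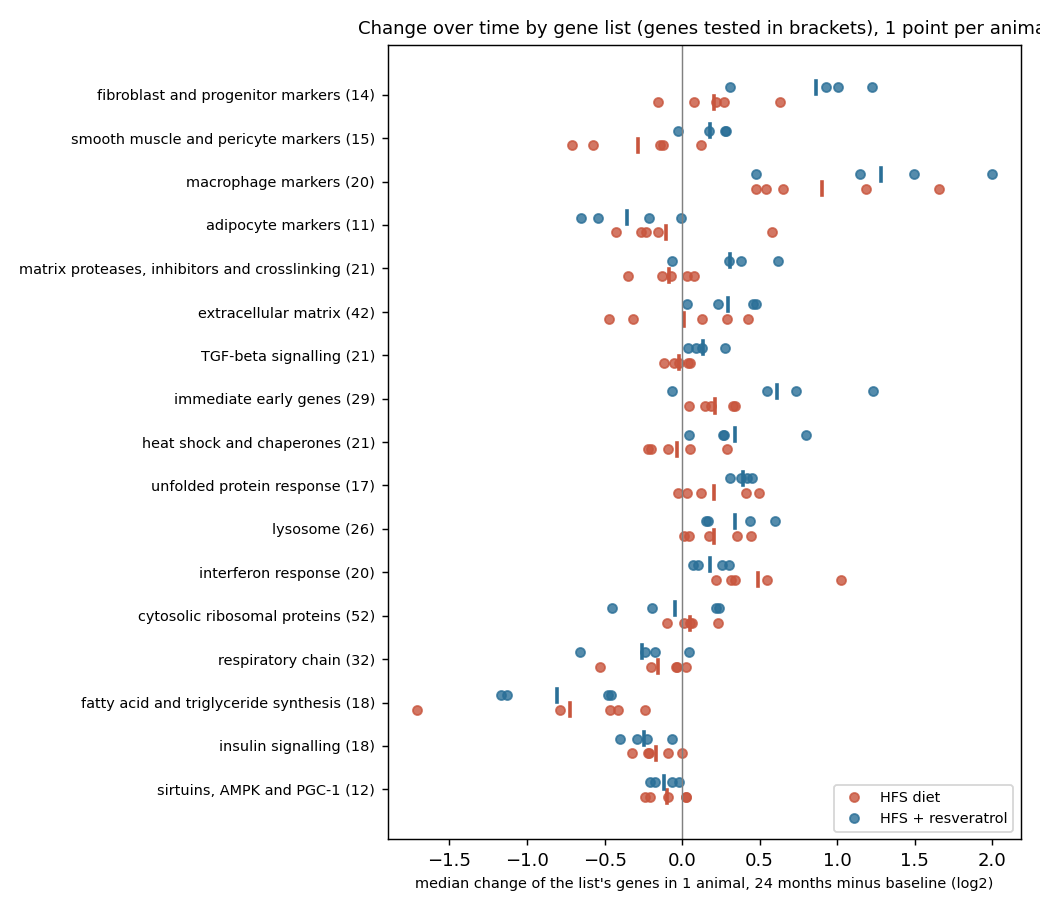
Median change over 24 months of the genes of each list (horizontal axis, log2) in each of the 9 paired animals, with the number of genes tested in brackets and a bar at the mean of each diet. Fibroblast and progenitor markers span 0.31 to 1.22 on resveratrol and -0.16 to 0.63 on HFS, and immediate early genes span -0.07 to 1.23 on resveratrol and 0.05 to 0.34 on HFS.

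Among stress genes the resveratrol animals differed from each other. Of 28 immediate early genes 1 passed higher, DUSP1, and the paired median over 29 measured members was 0.35, or 0.14 among the animals with both arrays in set A. The list's median change was -0.07, 0.55, 0.73 and 1.23 in resveratrol animals 1 to 4, and 0.34, 0.33, 0.19, 0.15 and 0.05 in HFS animals 1 to 5. Resveratrol animal 1 lay below every HFS animal and the other 3 lay above them all. ATF3, a stress-induced transcription factor, changed by 1.39, 1.45, 1.97 and 2.23 on resveratrol and by -0.38 to 1.22 on HFS (difference 1.08 ± 0.37, adjusted p = 0.439). NR4A2, an orphan nuclear receptor, changed by 3.75 in resveratrol animal 4 and by 0.59 to 1.37 in the other 3. ZFP36, which destabilizes cytokine mRNAs, differed by 1.38 ± 0.45. PTGS2, the inducible cyclooxygenase, differed by 1.50 ± 0.60, and NFKBIA, the inhibitor of NF-kappaB, by 0.80 ± 0.28. The animals of the diets overlapped in NR4A2, ZFP36, PTGS2 and NFKBIA.

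Of 21 heat shock and chaperone genes 1 passed higher, HSP90AA1, with a paired median of 0.31 that came to 0.01 among the animals with both arrays in set A. HSP90AA1, the inducible cytosolic HSP90, changed by 1.26, 0.98, 1.29 and 2.37 on resveratrol and by 0.26, 0.47, -0.80, -0.29 and 0.26 on HFS, with no overlap. The difference was 1.49 ± 0.37 (paired) and 1.60 ± 0.34 (all-baseline, adjusted p = 0.0121), and it did not pass without resveratrol animal 4. HSPA1B, an inducible HSP70, changed by 1.20 to 1.32 in all 4 resveratrol animals and by -1.09 to 0.80 on HFS, with a paired difference of 1.52 ± 0.36 and an all-baseline difference of 1.04 ± 0.61 that did not pass. Its gap between the paired groups was -1.06 at baseline and 0.46 at 24 months. PTGES3, the HSP90 cochaperone p23, differed by 1.29 ± 0.41 without passing. Of 17 genes of the unfolded protein response 2 passed higher, EIF2AK3 and PDIA4. Both met the detection filter only through the later resveratrol arrays, where they are high, so that count supports no direction. The paired median of the list was -0.03. That median was 0.30 among the animals with both arrays in set A and -0.24 in the all-baseline reading, and relative to all genes it was 0.17 with median scaling and 0.095 with the deposited z scores, so the list has no settled direction. EIF2AK3, the stress sensor kinase PERK, differed by 0.86 ± 0.19 (all-baseline, adjusted p = 0.0151). It changed by 0.57, 0.53, 0.78 and 1.06 on resveratrol and by -0.51 to 0.46 on HFS. It passed in 7 of the 9 readings that left out a later array. Its probe was detected on 3 of 10 HFS and 2 of 10 resveratrol arrays at baseline, and on 2 of 5 and 4 of 4 at 24 months. PDIA4, a disulfide isomerase, differed by 0.51 ± 0.09 (adjusted p = 0.000732), detected on 3 of the 4 later resveratrol arrays and on no array of the other groups. Its mean 24-month level on resveratrol was 1.05-fold the dimmest detected signal of the HFS arrays. That mean also takes the undetected resveratrol array at its read value, so the fold is not a lower bound.

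In the lysosome list 1 of 26 passed, LAMP1, with a paired median of 0.21. In the circadian clock list 0 of 15 passed and the median was 0.19. PER2, a clock repressor, differed by 0.97 ± 0.34, with changes of 0.19, 0.68, 0.86 and 1.93 on resveratrol and -0.57 to 0.20 on HFS. The diets overlapped, and PER2 did not pass in the paired (adjusted p = 0.444) or the all-baseline reading (adjusted p = 0.0636).

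Interferon response genes lay on the other side. None of 19 passed, against 3 at an unadjusted p under 0.05, all lower, where 676 of all 11325 genes were lower at that p. In the paired reading 4 of 20 had a difference above 0, against 49.4% of all genes, with a median of -0.27 that was -0.44 among the animals with both arrays in set A. Against the median of all genes the list lay below under every scaling tried. DTX3L, an interferon-induced ubiquitin ligase, changed by 1.36, 1.13, 0.64, 0.86 and 1.23 on HFS and by 0.32, -0.18, 0.54 and -0.49 on resveratrol. The animals did not overlap, and the difference was -1.0 ± 0.30 (adjusted p = 0.429). OAS1, which makes the activator of RNase L, differed by -0.91 ± 0.33. The interferon-induced genes IFI6 and ISG15 differed by -1.42 ± 0.53 and -1.22 ± 0.50. In these 3 genes the diets overlapped. The ISG15 probe was detected on 1 of 5 HFS and 3 of 4 resveratrol arrays at baseline, where the gap was 0.66, against -0.56 at 24 months. In IFI6 and ISG15 resveratrol animals 1 and 4 moved down, and in OAS1 resveratrol animal 4 did.

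Macrophage markers had higher medians at 24 months in all 9 animals. Their median change was 0.54, 1.66, 0.48, 0.65 and 1.19 in HFS animals 1 to 5 and 1.15, 2.00, 0.48 and 1.50 in resveratrol animals 1 to 4, and 0 of 20 passed. The paired median was 0.49 and 0 members had an unadjusted p under 0.05. Their summed intensity at 24 months was 20457 to 28839 on HFS and 22253 to 32418 on resveratrol, and ADGRE1 and MRC1 were never detected. Of 22 inflammatory cytokines and sensors 0 passed, with a paired median of 0.25, or 0.13 among the animals with both arrays in set A. The cytokine IL6 differed by -0.21 ± 0.52 and the chemokine CCL2 by 0.31 ± 0.68, each with changes that overlapped widely. NFKB1, a subunit of NF-kappaB, differed by 0.40 ± 0.23.

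Ribosomal protein genes gave 2 of the 17 lower calls. Of 52 measured, 0 passed higher and 2 lower, with a paired median of -0.14 that was 0.08 among the animals with both arrays in set A. RPS3 had log2 intensities of 13.02, 12.72, 12.88, 13.18 and 12.77 on HFS and 12.14, 11.96, 12.61 and 11.11 on resveratrol at 24 months, with a difference of -1.09 ± 0.29 (adjusted p = 0.0475). Its change was -1.11 in resveratrol animal 4 and 0.09 to 0.26 in the other 3, and it passed in 2 of the 9 readings that left out a later array. RPS19 differed by -0.74 ± 0.15 (adjusted p = 0.00739) and passed in all 9 readings that left out a later array. Ribosomal proteins, Y RNAs, tubulins and HSP90 have near-identical copies in the genome that these probes may also read.

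Genes of fat metabolism gave no call. In the paired reading 11 adipocyte markers had a median of -0.26, with 2 above 0, against 49.4% of all genes, and 18 genes of fatty acid and triglyceride synthesis had a median of -0.14. Among the animals with both arrays in set A these medians were -0.05 and -0.32, and the latter was 0.03 in the all-baseline reading. ZNF423, a transcription factor of preadipocytes, changed by -1.25 to 0.03 on HFS and by 0.17 to 1.25 on resveratrol, and did not pass in the paired (adjusted p = 0.324) or the all-baseline reading (adjusted p = 0.434). The median change of the synthesis genes was below 0 in all 9 animals, at -1.71 to -0.24 on HFS and -1.17 to -0.46 on resveratrol. In lipid droplets, PLIN2 differed by -0.92 ± 0.34 and PLIN3 by 1.12 ± 0.33. PLIN3 changed by 1.70, 1.03, 0.59 and 1.61 on resveratrol and by -0.36 to 0.43 on HFS, without overlap, and PLIN2 overlapped. CPT2, which takes acyl groups into mitochondrial oxidation, changed by -0.67, -0.68, -0.67 and -0.74 on resveratrol and by -0.60 to 0.78 on HFS (difference -0.79 ± 0.30, adjusted p = 0.464). ECHS1, an enoyl-CoA hydratase of the same pathway, differed by -0.88 ± 0.26. Of 32 respiratory chain genes 0 passed, with a paired median of -0.09, which turned to 0.04 relative to all genes with median scaling. COX7C, of cytochrome c oxidase, changed by 1.33, 1.42, 1.57 and 0.56 on resveratrol and by -0.07 to 0.52 on HFS. ATP5F1C, of ATP synthase, differed by 1.35 ± 0.45, and SDHC, of succinate dehydrogenase, by -1.06 ± 0.38.

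The genes most tied to resveratrol and to insulin did not pass in the paired reading, where no gene passed. SIRT1 had levels of 6.59, 7.21, 6.69 and 4.50 at baseline and 5.97, 7.25, 6.76 and 7.49 at 24 months in resveratrol animals 1 to 4. Its change was 2.99 in animal 4 and -0.62 to 0.07 in the other 3. The SIRT1 probe was detected on 3 of these 4 baseline arrays, and the lowest level was the 4.50 of animal 4. The size of that animal's change therefore rests on a baseline value below detection. The paired difference was 0.83 ± 0.62, and 0.04 ± 0.39 without animal 4. In the all-baseline reading SIRT1 differed by 1.15 ± 0.53 and did not pass (adjusted p = 0.344). Its HFS levels at 24 months were 5.11 to 6.28. PPARGC1A, which encodes PGC-1alpha, changed by -1.69, -2.49, -1.01 and -1.65 on resveratrol and by 0.34, -1.50, -0.34, -0.87 and -2.04 on HFS (difference -0.83 ± 0.47, adjusted p = 0.621). UCP2, a mitochondrial carrier, differed by 1.10 ± 0.53, with gaps of -0.87 at baseline and 0.23 at 24 months, and NAMPT, the NAD-making enzyme, by 0.08 ± 0.47. Of 18 insulin signalling genes GSK3B passed lower in the all-baseline reading and none higher, with a paired median of 0.07. The docking protein IRS1 had lower levels at 24 months in all 9 animals and differed by 0.10 ± 0.32 between diets, IRS2 differed by -0.37 ± 0.36 and the receptor INSR by 0.18 ± 0.17, with a probe detected on none of the HFS arrays at 24 months. PPARG, the main transcription factor of adipocytes, differed by -0.45 ± 0.30. The adipokine gene LEP differed by 0.16 ± 0.24. Of the 17 genes set apart for reporting, AKT2, SLC2A4, ADIPOQ and TNF had no probe past the detection filter.

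**Figure D5:**
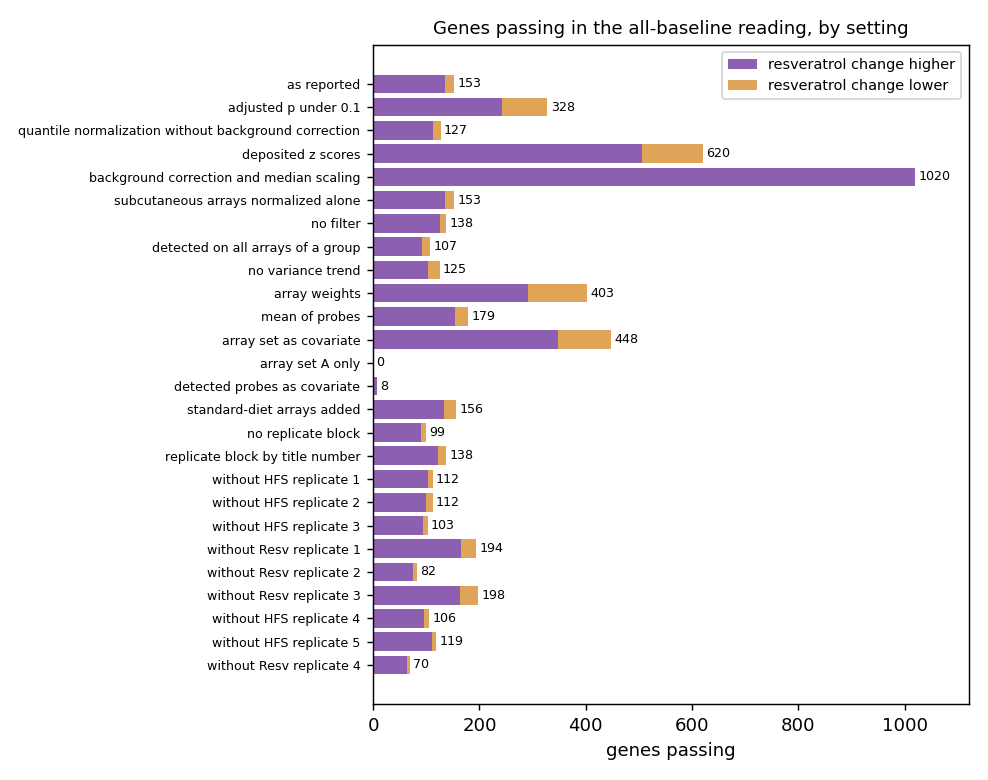
Number of genes passing in the all-baseline reading (horizontal axis) as reported and under each other setting, split into genes with a higher and a lower change on resveratrol. The count is 153 as reported, 70 without resveratrol replicate 4, 0 with the arrays of set A, 8 with detected probes as a covariate and 1020 with median scaling.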

How the data were processed

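Total RNA of fat was hybridised to Illumina HT-12 V4 arrays. The authors deposited intensities on a linear scale, exported with GenomeStudio 1.9.0 per the submitters' processing notes, with a detection p-value beside each, per the file headers. A second deposited table holds a z score for each probe and array, equal to the standardized log intensity to within 5e-10. No background correction or scaling of the deposited intensities is given in the sources used here.

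Of 47323 probes, 92 were empty, and 30113 of the other 47231 have 1 gene symbol in the platform annotation. The 45 arrays were background corrected and quantile normalized together (limma 3.58.1, function neqc, offset 16, log2 scale, R 4.3.3). A probe was kept when detected (p under 0.05) on no fewer arrays than it was not, in at least 1 group, and the brightest kept probe stood for a gene (19900 probes kept, of which 5059 had no symbol and 2 several, in the paired fit; 19365, 4813 and 2 in the all-baseline fit). The paired fit had a term per animal, time, and time by resveratrol (7 residual degrees of freedom). The all-baseline fit had 4 group means with animal as a random block (correlation 0.236). Both used lmFit and eBayes with a variance trend, two-sided, with Benjamini-Hochberg adjustment over all genes. Animal codes of the deposited columns pair the arrays. The residuals of an animal's arrays correlated across genes at -0.0531 to 0.482, above 0.1 in 8 of 9. The lowest value was that of resveratrol animal 4, so its pairing rests on the code alone. Replicates are animals; the number of arrays limits the precision. Bounds on folds use normalized log2 means.

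The members, 37 gene lists and 17 fixed genes were chosen with earlier results of these data known. The text could name 10 genes per direction of the paired fit and 5 per direction of the all-baseline fit (passing genes by size, otherwise by smallest p), up to 4 members of a list by smallest paired p, and the fixed genes. ZNF521 lies outside that rule and was named after its value was seen. Fits were tested on simulated data. Alternatives covered the threshold, normalization, filter, probe choice, variance model, blocks, covariates, array sets, added standard-diet arrays and each animal left out.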

Additional observations from a re-analysis of the deposited data

Results flagged for a closer look

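In the all-baseline reading 25 of the genes named passed limma's test of a difference between the diets in the change over time. On the log2 scale the differences were 2.30 for COL3A1, 2.19 for PCOLCE2, 2.16 for DUSP1, 1.75 for SH3BGRL, 1.71 for TUBA3E, 1.60 for HSP90AA1, 1.52 for PBDC1, 1.46 for LAMP1, 1.19 for HDAC4, 1.14 for CD55, 1.09 for SLC35B3, 1.07 for TIMP2, 1.03 for VDAC2, 0.95 for SMAD3, 0.94 for LEPROTL1, 0.86 for EIF2AK3, 0.65 for NOCT, 0.62 for CLEC14A and 0.51 for PDIA4. Of these, CD55, LEPROTL1, NOCT, CLEC14A and PDIA4 were detected only on later resveratrol arrays, and for CLEC14A a higher level is not established. SLC35B3, VDAC2, HDAC4, PBDC1 and EIF2AK3 also met the detection filter only through those arrays. The differences were -0.74 for RPS19, -1.03 for GSK3B, -1.09 for RSPRY1, -1.09 for RPS3, -1.29 for USE1 and -2.45 for RNY4. All 25 kept their sign with the arrays of set A, where none passed. That fit shares all the later arrays, so the kept signs are no support. Without resveratrol animal 4, 14 of the 24 still tested passed.

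Among 156 groups of 4 or 5 animals' changes, 9 (5.77%) held a value far from the others by Dixon's ratio, and chance gives about 1 in 20. Of these 9, 4 lay in resveratrol animal 4. NOCT changed by 0.89 there (the other 3 at 0.55 to 0.59), RPS3 by -1.11 (0.09 to 0.26), SCARA5 by 2.32 (1.30 to 1.45) and OAS1 by -0.81 (0.14 to 0.27). PBDC1 changed by 0.16 in resveratrol animal 1 (1.60 to 1.84 in the others). TRA2A changed by -0.021 in HFS animal 2 (0.79 to 1.09), TIMP2 by -0.65 in HFS animal 1 (-0.26 to -0.14), IRS1 by -0.57 in HFS animal 1 (-1.21 to -1.05) and PTGS2 by -1.66 in HFS animal 3 (0.12 to 0.56).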

How the results depend on the processing

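The paired reading gave 0 genes in 23 of 25 alternatives; the others gave 42 with median scaling and 0 to 3 when each animal was left out in turn (3 without resveratrol replicate 1). With no replicate block it gave 0, and with the title number as replicate block 0. The all-baseline count of 153 became 328 at an adjusted p under 0.1, 620 with the deposited z scores, 1020 with median scaling, 403 with array weights, 448 with the array set as covariate, 0 with set A alone, 8 with detected probes as covariate, 99 with no replicate block, and 70 to 198 when each later array was left out. With the title number as replicate block it was 138. The shares with a higher change were 74.1% at an adjusted p under 0.1, 72.2% with array weights and 77.7% with the set as covariate, against 88.9%. Apart from the construction of each alternative, the cause was not tested.

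Of the named genes, 13 turned sign in the paired reading, none of them passing there. With median scaling, which raised all genes by a median of 0.72, the differences were 0.011 for GSK3B, 0.13 for OAS1, 0.056 for ECHS1, 0.26 for CPT2, 0.10 for PLIN2, 0.66 for IRS2, 0.32 for PPARG, 0.047 for PPARGC1A and 0.58 for IL6. With the deposited z scores they were 0.025 for IRS2 and 0.087 for IL6. With set A alone they were -0.17 for IRS1 and -0.29 for NAMPT, with detected probes as covariate -0.21 for IRS1, -0.34 for SIRT1 and -0.22 for NAMPT, and with the replicate block by title number -0.12 for IRS1 and -0.41 for NAMPT. NAMPT was -8e-04 with quantile normalization alone and -0.37 with array weights. Leaving out animals gave -0.12 to 0.30 for IRS1, -0.49 to 0.12 for IL6, -0.23 to 0.82 for CCL2 and -0.43 to 0.48 for NAMPT.

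Detection limits the sizes for dim probes, and 4 later resveratrol arrays limit the precision.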

Other observations

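Markers of blood and muscle differed between baseline and 24 months by different amounts from animal to animal, and none passed the test between the diets. The median change of erythroid markers was -2.16, -0.04, -1.03, -1.75 and -1.25 in HFS animals 1 to 5 and 0.26, -1.45, -1.40 and -1.19 in resveratrol animals 1 to 4, and 0 of 10 members passed in either reading. Resveratrol animal 1 was the only animal above 0. Skeletal muscle markers changed by a median of -2.54 in HFS animal 5 and between -0.77 and 0.26 in the other 8 animals, with 0 of 6 passing in the paired and 0 of 4 in the all-baseline reading. Major histocompatibility complex class II genes, which present antigen, had median changes above 0 in all 9 animals, at 0.22 to 0.60 on HFS and 0.10 to 0.64 on resveratrol, with a median difference of 0.01 and 0 of 12 passing in either reading.

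The remaining lists had these median differences in the paired reading, with members passing in the all-baseline reading. The median was 0.23 for antioxidant enzymes (0 of 24), 0.14 for cell cycle genes (0 of 27), 0.12 for adipokines (0 of 8) and 0.11 for glucocorticoid targets (1 of 14, DUSP1 again). It was 0.08 for adipocyte transcription factors (0 of 13), 0.07 for fatty acid oxidation and uncoupling (0 of 17), 0.02 for sirtuins, AMPK and PGC-1 (0 of 12), -0.04 for lipolysis and lipid droplets (0 of 19) and -0.16 for the aryl hydrocarbon receptor axis (0 of 5). Among cell type markers it was 0.38 for erythroid (0 of 10), 0.21 for skeletal muscle (0 of 4), 0.20 for neuronal and Schwann (0 of 7), 0.09 for mesothelial (0 of 6), 0.06 for T and NK cell (0 of 14), 0.03 for B cell (0 of 5), 0.03 for epidermal (0 of 5) and -0.14 for neutrophil and platelet markers (0 of 8). Relative to the median of all genes, the sign of the list median turned under at least 1 of the scalings tried for 10 lists named here. These were the sirtuin list, adipocyte transcription factors, fatty acid oxidation, major histocompatibility complex class II, the aryl hydrocarbon receptor axis, and T and NK cell, B cell, mesothelial, skeletal muscle, and neuronal and Schwann markers. Among the animals with both arrays in set A the median lay on the other side of 0 for 8 lists, at -0.11 for the sirtuin list, -0.11 for fatty acid oxidation, -0.13 for major histocompatibility complex class II, -0.092 for glucocorticoid targets, -0.0046 for cell cycle genes, 0.06 for lipolysis and lipid droplets, -0.51 for skeletal muscle and -0.017 for mesothelial markers.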
